A study of Mus musculus with 9 samples.

Results

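The 10 genes described here encode the enzymes that make melanin and the proteins that build and serve the melanosome, the organelle in which melanin is made and stored. They were chosen by name, not by their values: *Tyr*, *Tyrp1*, *Dct*, *Pmel*, *Mlana*, *Oca2*, *Slc45a2*, *Slc24a5*, *Gpr143* and *Trpm1*, which are 10 of 31829 gene names on the array. They were measured by 14 of 39429 probes (*Pmel* under its older name *Si*). The arrays, dual-colour Agilent arrays of the whole mouse genome, compared 3 laser dissected tissues of the eye: the choroid (CH), the retinal pigment epithelium (RPE) and the photoreceptors (PR), with 3 arrays each. All mice were healthy C57BL/6 females (J strain in the methods) with an age of 6 months (± 2 weeks) in the labels, which is older than in the paper's text. Each sample came from a whole eye, and in the CH samples the RPE had been cut away before the choroid was collected. The amplified RNA of the tissue carried Cy5 on all 9 arrays, and the Cy3 channel held the same reference, mouse RNA of RPE and choroid combined. The labels do not say whether the 3 tissues of a replicate number came from the same eye. With 3 arrays per tissue, p-values measure the spread between these samples.

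Melanin is made from tyrosine, and tyrosinase (*Tyr*) carries out the first and limiting step. *Tyrp1* and *Dct* encode related enzymes that act on later intermediates of the black and brown pigment. The eye has pigment cells of different origin: the RPE is an epithelium that derives from the wall of the optic cup, whereas choroidal melanocytes derive from the neural crest, and both switch on the same pigment genes through the transcription factor MITF. Photoreceptors make no melanin. C57BL/6 mice are black, so both pigmented layers are heavily pigmented.

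The start regions of the pigment genes are shown because MITF, the regulator that both pigment cell types share, is known to bind the letters CATGTG and CACGTG (the E-box, in the M-box form when preceded by T). The table of RefSeq promoters (GRCm38.p6) held 7 start sites of 6 of the 10 genes, and *Pmel*, *Mlana*, *Slc45a2* and *Gpr143* had no entry. CATGTG on either strand was in the 250 bases before the start in 6 of these 7 sites, and so in all 6 genes, whereas 12.3% of all 32851 promoters of that length held it. The longer TCATGTG, which overlaps it, was in 5 of the 7 and in 3.25% of all promoters. CACGTG was in 1 of the 7 (a start of *Trpm1*) against 6.02% of all. TAATCC, letters bound by OTX factors, was in 2 of the 7 (*Dct* and a start of *Trpm1*) against 6.25%. These matches describe letters in a window and are not binding measurements. The 250 bases before the start of *Tyr*, *Tyrp1*, *Dct*, *Slc24a5* and both starts of *Trpm1* follow, 5′ to 3′ in the direction of the gene, with CATGTG, its reverse complement CACATG and CACGTG in capitals.
Tyr, chr7:87493513-87493762, minus strand: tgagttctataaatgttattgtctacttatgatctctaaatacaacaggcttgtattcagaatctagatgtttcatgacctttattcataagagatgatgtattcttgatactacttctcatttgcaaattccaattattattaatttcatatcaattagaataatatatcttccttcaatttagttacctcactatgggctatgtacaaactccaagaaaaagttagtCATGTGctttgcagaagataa
Tyrp1, chr4:80833963-80834212, plus strand: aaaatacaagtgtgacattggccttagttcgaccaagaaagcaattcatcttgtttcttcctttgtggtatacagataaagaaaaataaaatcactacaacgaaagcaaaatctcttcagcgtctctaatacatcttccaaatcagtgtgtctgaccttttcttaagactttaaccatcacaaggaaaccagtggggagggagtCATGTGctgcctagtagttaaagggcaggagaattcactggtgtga
Dct, chr14:118052247-118052496, minus strand: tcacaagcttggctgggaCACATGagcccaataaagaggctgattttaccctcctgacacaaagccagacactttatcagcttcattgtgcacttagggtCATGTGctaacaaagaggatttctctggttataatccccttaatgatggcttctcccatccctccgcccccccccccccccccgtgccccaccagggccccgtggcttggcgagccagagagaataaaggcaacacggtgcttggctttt
Slc24a5, chr2:125067877-125068126, plus strand: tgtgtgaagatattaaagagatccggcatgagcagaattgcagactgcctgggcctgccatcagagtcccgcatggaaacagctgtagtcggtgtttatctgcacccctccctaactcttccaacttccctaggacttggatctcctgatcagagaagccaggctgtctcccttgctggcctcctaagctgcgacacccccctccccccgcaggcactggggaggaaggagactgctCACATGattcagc
Trpm1, chr7:64153585-64153834, plus strand: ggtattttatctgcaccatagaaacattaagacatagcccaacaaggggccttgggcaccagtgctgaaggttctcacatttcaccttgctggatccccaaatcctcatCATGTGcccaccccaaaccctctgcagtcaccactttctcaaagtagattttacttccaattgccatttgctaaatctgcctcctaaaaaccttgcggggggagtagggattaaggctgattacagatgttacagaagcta
Trpm1, chr7:64185209-64185458, plus strand: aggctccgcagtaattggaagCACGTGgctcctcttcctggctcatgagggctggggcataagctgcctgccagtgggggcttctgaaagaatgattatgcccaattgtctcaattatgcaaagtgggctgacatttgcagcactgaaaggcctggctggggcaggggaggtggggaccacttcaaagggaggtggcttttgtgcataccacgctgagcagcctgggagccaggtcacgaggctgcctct
In *Tyr* and *Tyrp1* the match began 21 and 46 bases before the start. In *Dct* there were matches at 232 bases (minus strand) and at 150 bases (plus strand). The match of *Slc24a5* began only 13 bases before the start, on the minus strand, and with the neighbouring letters it read TCATGTGA, which was in 0.846% of all promoters.

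Values are log2 ratios of the tissue (Cy5) to the reference (Cy3) after background correction and normalization within each array, so 0 means a signal equal to the RPE and choroid reference. A linear model was fitted to all 39429 probes with limma, and a gene was called when its fold change (FC) was above 2.5 and its Benjamini-Hochberg (B-H) adjusted p-value below 0.01. All 14 probes of the 10 genes were well above background in Cy5 on all 9 arrays. RPE replicate 2 stood apart from the other arrays: 91.8% of its probes were well above background, against 63.1% to 71.9% on the others. In these bulk samples, fewer pigment cells and less RNA per pigment cell cannot be told apart. The tissue labels were checked with marker genes. All 5 rod markers tested were called higher in the PR than in RPE (5.17% of all probes were) and than in CH (share not given here). In the PR *Gnat1* and *Sag* were saturated in Cy5 on all 3 arrays, *Nrl* on 2 and *Cnga1* on 1. Of 7 RPE markers, 5 (*Rpe65*, *Lrat*, *Rdh5*, *Rlbp1* and *Ttr*) were called higher in the RPE than in CH (0.185% of all probes). *Rpe65*, *Rdh5* and *Ttr* were saturated in Cy5 on all 3 RPE arrays, and *Ttr* on all 3 CH arrays too. The raw Cy3 signal of *Ttr* was 95268 to 145342 in the CH and 45775 to 63069 in the RPE. All 4 fibroblast markers were called higher in the CH than in RPE (1.55% of all probes).

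The 10 pigment genes were higher in both pigmented tissues than in the photoreceptors. In the RPE 10 of 10 were called higher than in PR, where 10.3% of all probes were called in that direction, and in the CH 10 of 10, where 12% of all probes were. The median difference over the 10 genes was 3.16 (log2) for RPE against PR and 4.62 for CH against PR, and the medians over all probes were -0.01 and -0.05. At none of the 10 reported probes did an array of a pigmented tissue fall to the level of a PR array, whereas 2 further probes of *Trpm1* had RPE arrays that overlapped the PR arrays or lay below them, and with the median of probes 9 of 10 genes were called in each comparison; 28.8% of all probes had all RPE arrays above all PR arrays, and 28% all CH arrays. The 9 arrays lay on 3 slides, and only slide 2 held all 3 tissues, with 1 array of each: there the 10 differences were between 1.65 and 7.60 for RPE against PR and between 1.66 and 7.02 for CH against PR. The Cy5 signal taken alone gave the same calls in both comparisons, 10 of 10, with 9.07% and 11% of all probes called.

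**Figure D1:**
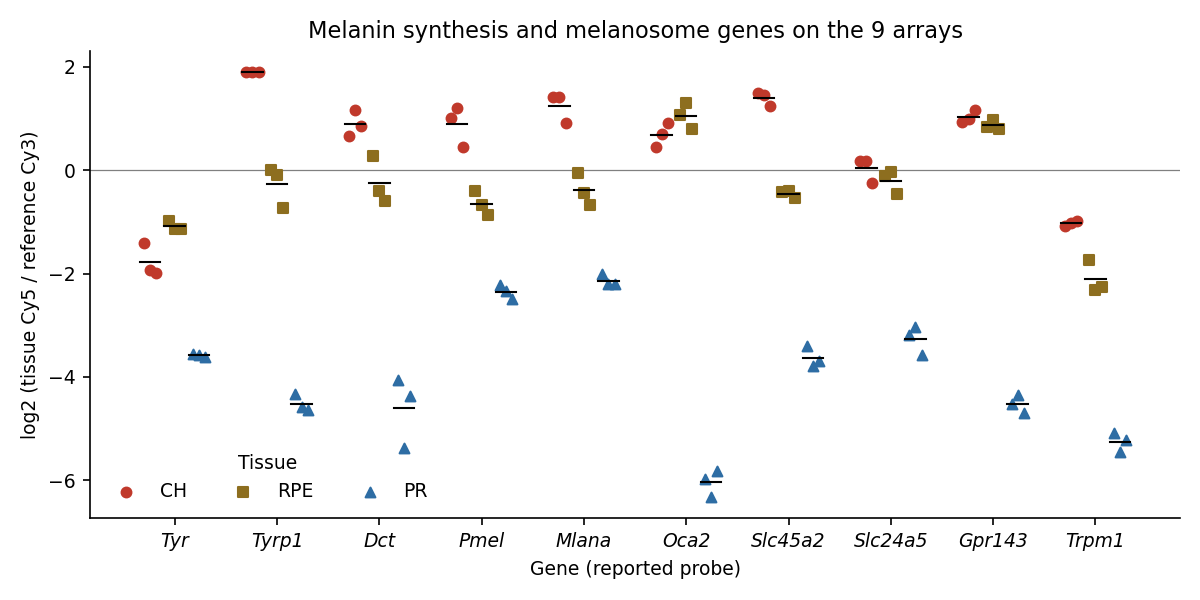
Log2 ratio of tissue (Cy5) to reference (Cy3) of the 10 genes, 1 reported probe each, on the 3 CH, 3 RPE and 3 PR arrays; a point is an array and a black line the mean of its tissue. All CH and RPE points lie above the PR points of the same gene, and CH and RPE points overlap only in *Oca2*, *Slc24a5* and *Gpr143*.

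The largest contrast of the RPE with the photoreceptors was that of *Oca2*, the melanosomal protein that is defective in a common form of albinism and helps to set the pH of the organelle. Its log2 ratios were 0.44, 0.70 and 0.91 in the CH, 1.07, 1.29 and 0.79 in the RPE, and -5.97, -6.31 and -5.82 in the PR. The raw Cy5 signal was between 81738 and 137305 on the 6 arrays of the pigmented tissues and between 551 and 1659 on the PR arrays. *Oca2* was 135-fold higher in the RPE (log2 difference 7.08 ± 0.18 SE, adjusted p-value 5.62e-09) and 105-fold higher in the CH than in PR. Its place among the CH contrasts cannot be given, since those of *Tyrp1* and *Dct* are lower bounds. In the RPE *Gpr143* came next, a receptor in the melanosome membrane that is mutated in ocular albinism, with an FC of 41.9 in the RPE and 46.9 in the CH. The smallest RPE contrasts at the reported probes were those of *Pmel*, *Mlana* and *Tyr*. *Tyr* was 5.63-fold higher in the RPE and 3.51-fold higher in the CH than in PR, but 10.4-fold higher in the RPE at its second probe. *Pmel*, which forms the fibrils on which melanin is laid down, was 3.25-fold and 9.46-fold higher, and *Mlana*, a small melanosomal membrane protein that binds it, 3.36-fold and 10.4-fold. By the Cy5 signal alone *Pmel* and *Mlana* were each 2.67-fold higher in the RPE, close to the threshold. For these genes the PR arrays were far from dark: the raw Cy5 signal of *Pmel* on them was between 44339 and 65839, and that of *Mlana* between 61549 and 94950. RPE markers also gave signal in the PR samples, where the summed Cy5 signal of the 7 markers was between 304962 and 662592. In the RPE samples the sum was 3408700 to 3518370, which is capped, since 3 to 4 of the 7 were saturated on each RPE array. The part of RPE RNA in the PR signal of the pigment genes was not tested.

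**Figure D2:**
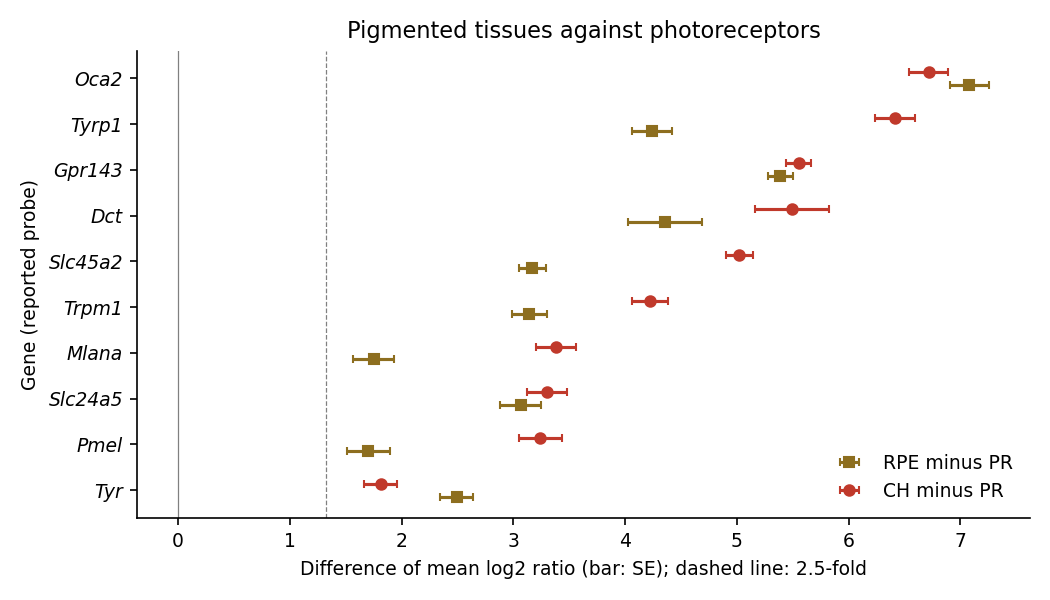
Differences of the mean log2 ratio from the PR for the RPE (squares) and the CH (circles), with the standard error as a bar, for the 10 genes ordered by the CH difference. All 20 differences lie above the dashed line at 2.5-fold, from *Pmel* in the RPE (1.70) to *Oca2* in the RPE (7.08); *Tyrp1* and *Dct* were saturated on all CH arrays.

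Between the 2 pigmented tissues the genes split. *Slc45a2*, *Mlana*, *Pmel* and *Tyrp1* were called higher in the CH, which makes 4 of 10 where 1.55% of all probes were called in that direction, and 0 of 10 were called higher in the RPE, where 0.185% of all probes were. Leaving out any 1 of the 9 arrays, RPE replicate 2 included, kept each of these calls and those against the PR. With the Cy5 signal alone, or with the deposited series table, 1 of the 4 calls remained, that of *Slc45a2*. The remaining 6 (*Tyr*, *Dct*, *Oca2*, *Slc24a5*, *Gpr143* and *Trpm1*) were not called. The median difference over the 10 genes was -1.11 (log2, RPE minus CH) against 0.04 over all probes. It was -0.42 with the Cy5 signal alone, -0.58 with the series table and -0.67 with saturated spots left out, the last 2 values over the 8 genes other than *Tyrp1* and *Dct*, whose CH spots were all saturated. At the reported probes *Tyr* was the only gene of the 10 whose RPE arrays all lay above its CH arrays (20.7% of all probes had that order), and 6 genes had the opposite order (17.9% of all probes). The 2 slides that held both tissues gave the same signs: 8 of 10 genes were lower in the RPE on slide 1 (2 arrays of each tissue, median -0.94) and 8 of 10 on slide 2 (1 array of each, median -1.44).

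*Slc45a2*, a transporter of the melanosome membrane whose loss gives oculocutaneous albinism, showed the clearest preference for the CH. Its log2 ratios were 1.48, 1.44 and 1.25 in the CH, -0.43, -0.40 and -0.54 in the RPE, and -3.41, -3.79 and -3.69 in the PR. The 3 tissues were separate steps with narrow spread, and no array strayed from its group. The raw Cy5 signal was 39832, 53279 and 46960 in the CH and 10841, 12394 and 9363 in the RPE, while the reference signal (Cy3) stayed between 6636 and 8609 on all 9 arrays. *Slc45a2* was 3.61-fold higher in the CH than in RPE (log2 difference -1.85 ± 0.12 SE, adjusted p-value 5.90e-05). The difference was -1.85 on each of the slides that held both tissues. Over all 28 alternatives the call was kept, with values between -2.25 and -1.80.

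For *Pmel* the log2 ratios were 1.02, 1.20 and 0.45 in the CH, -0.41, -0.69 and -0.87 in the RPE and -2.23, -2.34 and -2.50 in the PR. The ratio was 2.91-fold higher in the CH than in RPE (-1.54 ± 0.19 SE, adjusted p-value 0.000682). *Mlana* had 1.40, 1.41 and 0.91 in the CH, -0.05, -0.45 and -0.67 in the RPE and -2.01, -2.21 and -2.20 in the PR, and its ratio was also higher in the CH (-1.63 ± 0.18 SE, adjusted p-value 0.000396); 1 of its CH spots was saturated. In both genes CH replicate 3 had the lowest CH value. That array also had the highest median over the 7 RPE markers among the CH arrays, 1.30 against 0.45 and 0.59; the part of RPE RNA in these values was not tested. Without CH replicate 3 all 4 calls were kept.

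The calls of *Tyrp1*, *Pmel* and *Mlana* rested in part on the reference channel. The Cy3 channel held the same RNA on every array, yet at the brightest of these probes its signal differed between tissues. At the *Tyrp1* probe the raw Cy3 signal ranged from 42939 to 50185 on CH arrays, from 138997 to 168380 on RPE arrays and from 352240 to 394423 on PR arrays. It was thus lowest where the Cy5 signal was highest. The normalized Cy3 signal of *Tyrp1* differed by 1.69 (log2) between RPE and CH and by -2.74 between CH and PR, the latter the only Cy3 call among the reported probes of the 10 genes (0.0558% of all probes were called in that direction). The other probe of *Dct* was also called there (-2.35, adjusted p-value 0.00623). For *Dct*, *Mlana* and *Pmel* the Cy3 difference between RPE and CH was 0.77, 0.61 and 0.47, and for the other 6 genes it lay between -0.14 and 0.08. Over all probes, 90% of the Cy3 differences between RPE and CH lay between -0.27 and 0.33. With the Cy5 signal alone, 1 of the 10 genes was called higher in the CH than in RPE, *Slc45a2* (-1.90, 3.74-fold, adjusted p-value 0.00109), where 1.18% of all probes were called. The Cy5 differences of *Pmel* and *Mlana* were -1.07 and -1.02 with adjusted p-values of 0.0160 and 0.0110, and that of *Tyrp1* was -0.48 with 0.152. The median Cy5 difference over the 10 genes was -0.42. Why the reference signal differed was not tested.

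**Figure D3:**
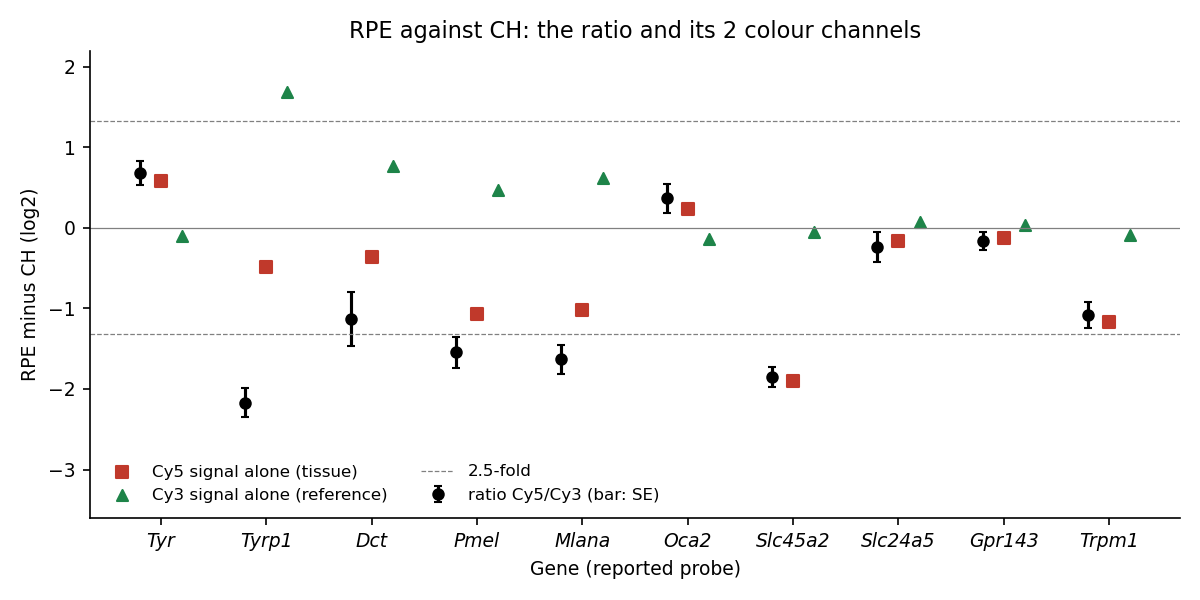
Difference between RPE and CH (log2) of the 10 genes for the ratio (circles, with standard error), the Cy5 tissue signal alone (squares) and the Cy3 reference signal alone (triangles); dashed lines mark 2.5-fold. For *Slc45a2*, *Trpm1* and *Tyr* the ratio and the Cy5 signal lie close together, whereas for *Tyrp1* the Cy3 difference of 1.69 is larger than the Cy5 difference of -0.48.

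Of the 3 enzymes, *Tyrp1* and *Dct* were limited by saturation. All 3 CH spots of *Tyrp1* were saturated in Cy5, with raw signals of 640796, 592548 and 641279, against 457063, 475591 and 371195 in the RPE and 39446, 25822 and 52065 in the PR. From the Cy5 signal, *Tyrp1* was at least 1.40-fold higher in the CH than in RPE (adjusted p-value 0.000118 for the ratio and 0.152, not called, for the Cy5 difference) and at least 12.7-fold higher than in PR. Such bounds are taken from 1 colour channel without a dye swap and are open to dye bias. The reported probe of *Dct*, dopachrome tautomerase, was also saturated on the 3 CH arrays and was at least 11.1-fold higher there than in PR. Against the RPE the bound was 1.29-fold, with an adjusted p-value of 0.631 for the Cy5 difference and 0.0353 for the ratio, and neither was called. In the RPE, which was not saturated at these probes, *Tyrp1* was 18.9-fold and *Dct* 20.6-fold higher than in PR by the ratio, and 9.13-fold and 8.65-fold by the Cy5 signal alone. A neighbouring *Dct* probe, which shares 44 of its 60 bases with the reported probe, was saturated on all 6 arrays of the pigmented tissues with an RPE level at least 8.52-fold that of the PR, and its Cy5 difference between RPE and CH was 0.004.

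*Tyr*, the limiting enzyme, had the opposite order of the pigmented tissues on these arrays. Its reported probe (chr7:94632414-94632473 on mm9) gave log2 ratios of -1.41, -1.92 and -1.98 in the CH, -0.98, -1.14 and -1.14 in the RPE and -3.55, -3.58 and -3.61 in the PR. The RPE values lay above all CH values and both above all PR values. In the RPE *Tyr* exceeded its CH level by 1.60-fold (0.68 ± 0.15 SE, adjusted p-value 0.00872), which is below the FC threshold. A second probe, 56149 bases away and spotted 10 times on each array, gave -1.38, -1.35 and -1.64 in the CH and -0.68, -0.64 and -0.59 in the RPE. At that probe the difference was 0.82 (1.77-fold, adjusted p-value 0.00119), and the Cy3 signal was between 3802 and 4340 on all 9 arrays. The standard deviation over its 10 spots was between 0.03 and 0.08 (log2 ratio before normalization) on the 6 arrays of the pigmented tissues. Both probes placed *Tyr* in the order RPE, CH, PR. In the paper's semi-quantitative RT-PCR, by contrast, *Tyr* was highest in the CH. The probes differed in the size of the contrast with the PR, which was 5.63-fold at the first and 10.4-fold at the second for the RPE. The first 30 bases of these probes show that they read different parts of the transcript.
Tyr reported probe: acgtaatcctggaaaccatgacaaagccaa
Tyr second probe: tactctgctacctagcatgtatatataaat

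*Oca2*, *Gpr143* and *Slc24a5* had CH and RPE arrays that overlapped. *Slc24a5* is an ion exchanger of the melanosome, and its log2 ratios were 0.17, 0.18 and -0.26 in the CH, -0.11, -0.03 and -0.47 in the RPE and -3.20, -3.03 and -3.58 in the PR. *Gpr143* had 0.93, 0.99 and 1.16 in the CH, 0.82, 0.96 and 0.80 in the RPE and -4.53, -4.35 and -4.69 in the PR. For these genes neither pigmented tissue stood above the other beyond the spread between arrays. The differences between RPE and CH were 0.37 for *Oca2* (95% interval -0.03 to 0.76, adjusted p-value 0.184), -0.24 for *Slc24a5* (-0.64 to 0.17, adjusted p-value 0.418) and -0.17 for *Gpr143* (-0.42 to 0.09, adjusted p-value 0.351). The intervals exclude a 2.5-fold difference (1.32 in log2) in either direction.

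*Trpm1*, also called melastatin, encodes an ion channel that is made in pigment cells and also in ON bipolar cells of the retina, where it carries the light response. It was measured by 3 probes that did not behave alike. The reported probe (chr7:71369544-71369603 on mm9, listed under NM_018752) gave log2 ratios of -1.08, -1.03 and -0.98 in the CH, -1.74, -2.32 and -2.26 in the RPE and -5.08, -5.45 and -5.22 in the PR. It was 2.11-fold higher in the CH than in RPE (-1.08 ± 0.16 SE, adjusted p-value 0.00151), below the FC threshold, and 8.84-fold higher in the RPE than in PR. This order, CH above RPE and RPE above PR with no overlap, was also that of *Slc45a2*, *Pmel*, *Mlana*, *Tyrp1* and *Dct*. The other 2 probes are listed under NM_001039104, 2063 and 44396 bases further along the chromosome. At the nearer of them (chr7:71371607-71371666) the values were 0.45, 0.40 and 0.43 in the CH, -0.74, -0.45 and -1.02 in the RPE and -1.13, -0.06 and -0.96 in the PR, so RPE and PR overlapped, and their difference was -0.02 (95% interval -0.59 to 0.55). At the far probe (chr7:71413940-71413999) the PR was the highest tissue. There the values were -2.07, -2.27 and -2.33 in the CH, -1.94, -2.26 and -2.07 in the RPE and -1.67, -0.41 and -1.65 in the PR, and RPE against PR was -0.84 (adjusted p-value 0.0360, not called). The first 30 bases of the 3 probes identify them.
Trpm1 reported probe: aagtaggacatgtttgtggcagtttattta
Trpm1 nearer probe: tgaacccccagccaaaggcaagaagaaaaa
Trpm1 far probe: acttagcagttatgtcagttgttccagagg

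At both NM_001039104 probes of *Trpm1* PR replicate 2 was the highest PR array. It was the only PR array on slide 2, the others lying on slide 3, so sample and slide cannot be told apart. Markers of ON bipolar cells were also highest on that array among the PR arrays, but so were some rod markers. *Pde6b* had 2.22, 2.60 and 2.21 on the PR arrays, and *Nrl* and *Sag* had the same highest array. The rod markers *Gnat1* and *Cnga1* were highest on PR replicate 3. The share of all probes with their highest PR value on PR replicate 2 was not computed. Of 6 ON bipolar cell markers, 3 were called higher in the PR than in RPE (5.17% of all probes were called in that direction). All 6 had their highest PR ratio on PR replicate 2. The 3 called markers had PR values of -1.06, 0.04 and -1.01 for *Grm6*, the glutamate receptor of these cells, -1.09, -0.04 and -0.45 for *Pcp2*, and 0.61, 0.98 and 0.72 for *Prkca*. The median over the 6 markers was -0.88, 0.05 and -0.59 on the 3 PR arrays, -1.12 to -0.97 on the CH arrays and -1.35 to -0.77 on the RPE arrays. Their summed Cy5 signal ranged from 171799 to 286997 in PR samples, from 118833 to 144856 in RPE samples and from 146896 to 185737 in CH samples, and none of the 6 was at 0. That sum was highest on PR replicate 3, with 201273 on PR replicate 2. The part of bipolar cell RNA in the *Trpm1* values was not tested. With the median of its 3 probes *Trpm1* lost its call against the PR in both pigmented tissues (-0.02 for the RPE, 1.15 for the CH).

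**Figure D4:**
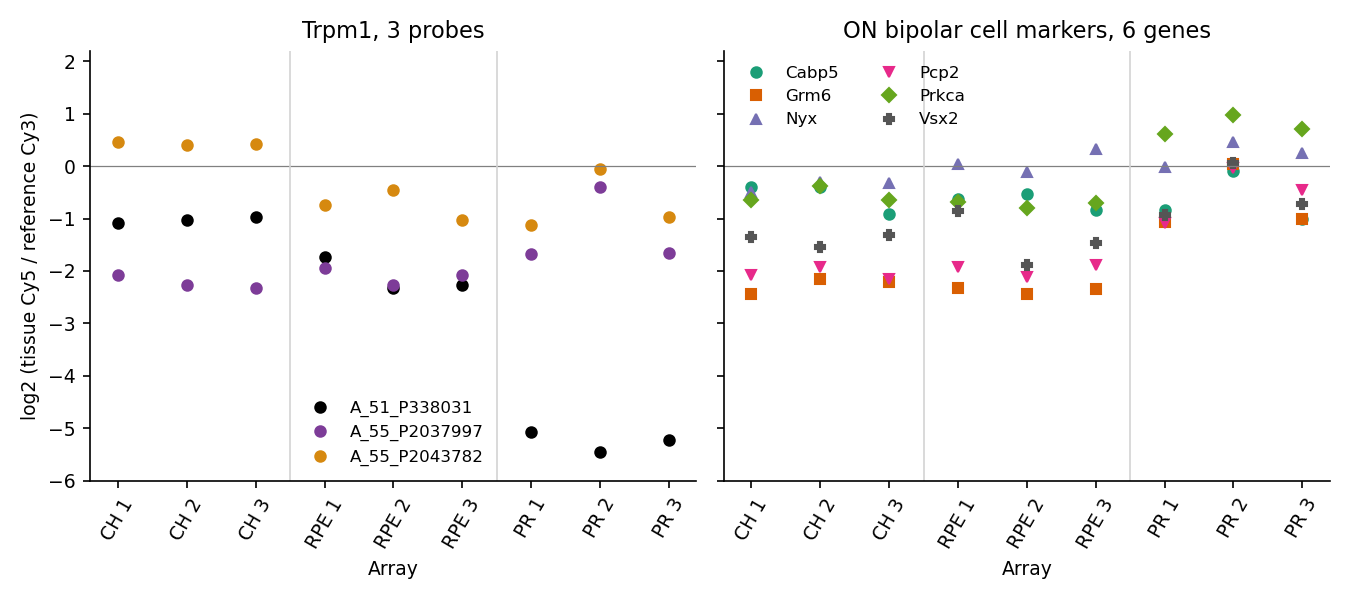
Log2 ratio of tissue to reference on each of the 9 arrays for the 3 *Trpm1* probes (left) and for 6 ON bipolar cell marker genes (right). The reported probe, A_51_P338031, lies below -5 on all PR arrays, while the other 2 probes and all 6 bipolar markers have their highest PR value on PR replicate 2. That array was the only PR array on slide 2.

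Other genes of the melanosome pathway were described from 4 lists with 40 genes, all of them on the array. In the RPE 15 of 40 were called higher than in PR (10.3% of all probes were) and 1 lower (5.17%). In the CH 16 of 40 were called higher than in PR (12% of all probes were) and 0 lower. Between the pigmented tissues 1 was called higher in the RPE (0.185% of all probes were) and 4 in the CH (1.55%), 5 in all. Leaving out RPE replicate 2 gave 3 calls and leaving out CH replicate 3 gave 8. The median difference over the 40 genes was 0.92 for RPE against PR, 0.87 for CH against PR and 0.03 for RPE against CH.

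The regulators and the transport proteins carried most of these calls. Of 6 transcriptional regulators, 4 were called higher in the RPE and 5 in the CH than in PR, beside 10.3% and 12% of all probes; the same shares apply to the lists that follow. *Mitf*, the master regulator of pigment cells, was 4.07 (log2) higher in the RPE and 4.57 higher in the CH than in PR. *Sox9* was 4.88 higher in the RPE than in PR. *Pax3*, a neural crest regulator, was 4.94 higher in the CH than in PR and was called higher in the CH than in RPE (-1.76, adjusted p-value 0.000557). *Otx2*, which the RPE and the photoreceptors share, was the only pathway gene called higher in the RPE than in CH (1.35, adjusted p-value 0.00789), and its CH values were -0.29, -0.09 and 0.95, with CH replicate 3 again nearest to the RPE. Its call was lost with the slide as a block (adjusted p-value 0.0159), with the replicate block (0.0110), with median centring and when any array other than CH replicate 3 was left out (adjusted p-values 0.0113 to 0.0361). Of 7 transport genes, 5 were called higher than in PR in each pigmented tissue, and *Myo5a*, the motor that carries melanosomes along actin, was called higher in the CH than in RPE (-1.66, adjusted p-value 6.32e-05). *Mreg*, a regulator of melanosome transfer, was the only one called higher in the PR than in RPE (-1.94, adjusted p-value 5.96e-06).

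Among 6 other melanosome components, 3 were called higher than in PR in each pigmented tissue. *Cd63*, a sorting protein of melanosomes and lysosomes, was 4.65 (log2) higher in the RPE than in PR, with 1 of the 3 RPE spots saturated; it was saturated on all CH arrays and was at least 6.58-fold higher there than in PR. *Gpnmb*, a relative of *Pmel*, was called higher in the CH than in RPE (-1.40, adjusted p-value 0.00170), a call that was lost when RPE replicate 2 (-1.25) or CH replicate 1 (-1.20) was left out. The 21 genes of the sorting and biogenesis complexes (BLOC, HPS and AP-3 subunits and their partners) serve lysosome-related organelles. The medians over the 21 were 0.41 for RPE against PR and 0.40 for CH against PR. In each pigmented tissue 3 of 21 were called higher than in PR, near the 10.3% and 12% of all probes. The 3 were *Rab32*, *Rab38* and *Bloc1s1*. *Rab32*, a small GTPase that sends enzymes to the melanosome, was 2.93 higher in the RPE and 4.56 higher in the CH than in PR and was called higher in the CH than in RPE (-1.63, adjusted p-value 0.000112).

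**Figure D5:**
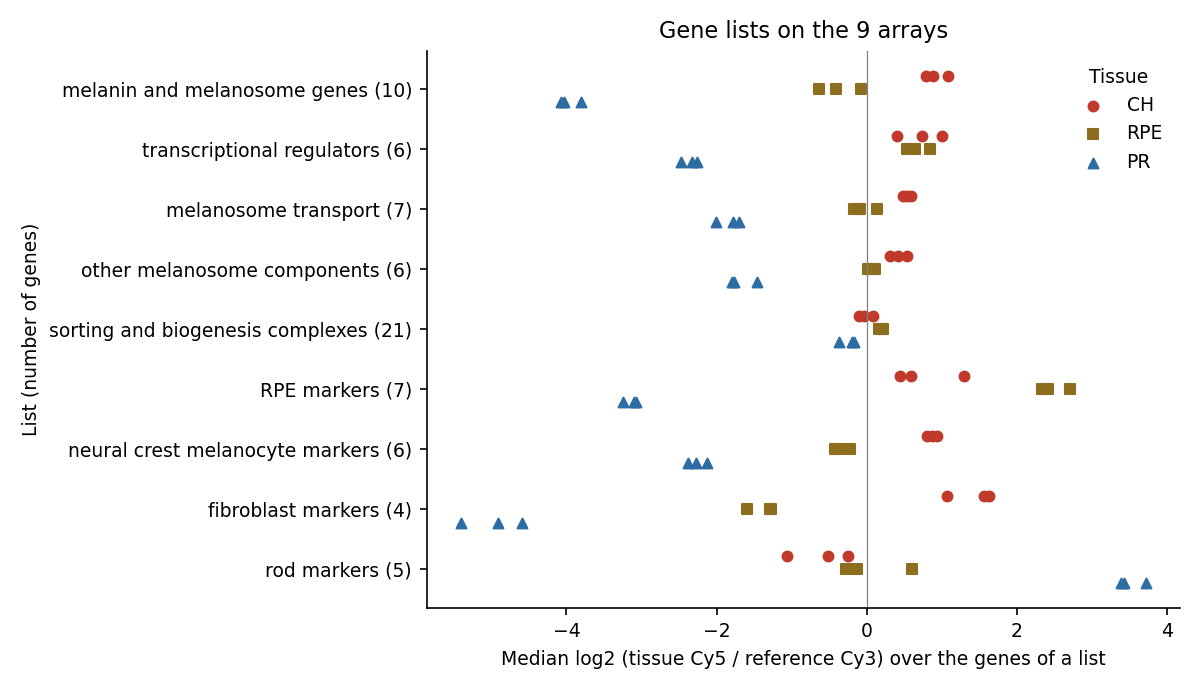
Median log2 ratio of tissue to reference over the genes of a list, for each of the 3 CH, 3 RPE and 3 PR arrays; the number of genes is given in brackets. The 10 melanin and melanosome genes lie at 0.80 to 1.08 on CH arrays and at -4.07 to -3.81 on PR arrays, while the 21 sorting genes stay between -0.37 and 0.22 on all 9 arrays.

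Some markers of neighbouring cells also differed between the pigmented tissues. Of 6 neural crest melanocyte markers, 2 were called higher in the CH than in RPE (*Pax3* and *Mc1r*, the melanocortin receptor, -1.56) and 0 lower, where 1.55% of all probes were called higher in the CH. *Mc1r* was highest in the PR (mean 1.70 against 1.11 in the CH) and was called higher there than in RPE (-2.15, adjusted p-value 1.23e-05). The differences of the others were -1.13 for *Ednrb*, -0.83 for *Kit*, -0.27 for *Sox10* and 0.03 for *Erbb3*. The summed Cy5 signal of the 6 ranged from 110921 to 181077 in CH samples, from 54747 to 80426 in RPE samples and from 6464 to 13540 in PR samples, and none was at 0. All 4 fibroblast markers were called higher in the CH than in RPE (-3.62 to -1.88). Their summed Cy5 signals were 1549620 to 1609600 in the CH and 457843 to 572597 in the RPE. The CH sum is capped, since *Dcn* was saturated on all 3 CH arrays. RPE markers gave signal in the CH samples too. The summed Cy5 signal of the 7 was between 2492650 and 3213600 there, and up to 3 of them were saturated on a CH array. Of the 7, 6 were called higher in the CH than in PR (12% of all probes were). *Best1*, a defining RPE marker, was not well above background on all arrays of any tissue. How much of the pigment gene signal of the CH came from RPE RNA, or of the RPE from melanocyte RNA, was not tested.

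Genes with a like pattern were sought over the 9 arrays. The median profile of the 10 genes, each centred on its own mean, was 1.82, 1.89 and 1.93 in the CH, 1.05, 0.89 and 0.61 in the RPE and -2.40, -2.77 and -2.61 in the PR. Of the 10 genes, *Trpm1* at its reported probe was nearest to this profile (root mean square distance 0.18) and *Oca2* farthest (1.51), with overlapping RPE and CH arrays. Among 19377 other genes, the 5 nearest were *Trim30* (0.138), *Ifit1* (0.147), *Art4* (0.163), *Igsf10* (0.165) and *Shisa5* (0.170). *Kit*, the receptor that melanocytes need to survive, ranked 8 in that order.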

How the data were processed

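The authors deposited the Agilent Feature Extraction output (software 9.5.3.1 per the labels) of 9 arrays, which gives for each spot the scanned intensity and its local background. Also deposited were a log10 ratio per spot and a series table of log2 values of the Cy5 channel, whose normalization is not stated (r with log2 Cy5 between 0.985 and 0.999, array medians between 9.38 and 9.55); both served as alternatives only. The intensities were background corrected (normexp, offset 50), and loess within each array was applied to log2(Cy5/Cy3). Controls and outlier spots were left out, and spots of a probe were averaged. A model of tissue means (limma 3.58.1, R 4.3.3) was fitted with Benjamini-Hochberg adjustment over 39429 probes. Single-channel values were made with loess and Aquantile.

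Each gene is reported by the probe with the fewest saturated spots among those well above background, the brightest where tied. Named pathway genes are the 3 called with the largest difference in each comparison and direction (counts of 5 or fewer were named in full, and *Rab32*, *Rab38*, *Bloc1s1*, *Gpnmb* and *Kit* after their values were seen), and the 5 genes nearest to the median profile. Marker lists (9) are described where they bear on a result. Schwann cell and macrophage markers had 2 of 4 and 1 of 4 genes called between RPE and CH, each higher in the CH. Endothelium and red blood cell markers had 0 of 4 and 0 of 3. 1 gene of the rod marker list is not reported here. The genes and lists were chosen with earlier results of these data known. Probe positions are those of the files (mm9). Exons were not assigned, as no mm9 annotation was used here. Alternatives covered background, normalization, channel, blocks, probe choice, saturation, variance model, thresholds and each array left out.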

Additional observations from a re-analysis of the deposited data

How the results depend on the processing

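Against the PR, all 10 genes kept their calls in both pigmented tissues under every alternative tried except for *Dct* and *Mlana* in the RPE with the series table (3.27 and 1.31, adjusted p-values 0.0243 and 0.00657) and *Trpm1* with the median of its 3 probes, where RPE against PR was -0.020 and CH against PR 1.15. *Tyrp1* and *Dct* had no CH value with the series table or with saturated spots left out. Between RPE and CH, 4 calls became 1 with the Cy5 signal alone, 1 with the series table and 3 (of 8 genes) with saturated spots left out. They became 5 with median centring and 5 at a fold above 2, all higher in the CH. At an adjusted p below 0.05 with no fold threshold 7 were called, 6 higher in the CH and 1 in the RPE. The share of all probes called was computed for the main settings and the single channels only. The counts at looser thresholds therefore cannot be weighed against it. The count stayed at 4 whichever array was left out. The median difference of the 10 genes for RPE against CH was -0.42 with Cy5 alone, -1.48 with median centring, -0.67 with saturated spots left out, -0.58 with the series table and -1.33 to -0.98 with 1 array left out. For CH against PR it was 3.57 with Cy5 alone, 4.47 with the Feature Extraction log ratio, 4.95 with median centring, 4.20 with the median of probes, 3.78 with saturated spots left out, 3.57 with the series table and 4.78 with the slide block, and 4.53 to 4.72 with 1 array left out. For RPE against PR the range with 1 array left out was 3.09 to 3.26. Of the 40 pathway genes, 9 were called between RPE and CH at a fold above 2, 2 higher in the RPE and 7 in the CH. At an adjusted p below 0.05 with no fold threshold 24 were, 12 in each direction. There RPE against PR gave 34 (28 higher in the RPE and 6 in the PR). CH against PR gave 32 (26 higher in the CH and 6 in the PR). Here too no share of all probes was computed, so these counts cannot be weighed. With 1 array left out the counts at the main thresholds were 3 to 8 for RPE against CH, and 16 to 17 in each comparison with the PR. Without RPE replicate 2 the count between RPE and CH was 3.

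Over the 9 pairs of arrays with the same number, the correlation of deviations from the tissue means was between -0.08 and 0.29. Over the 18 pairs with other numbers it was between -0.31 and 0.25. With 3 arrays per tissue these values cannot tell whether replicate numbers pair the samples, and the replicate 2 arrays also shared slide 2. With the replicate block, 4, 10 and 10 of the 10 genes were called for RPE against CH, RPE against PR and CH against PR, and 4, 16 and 16 of the pathway genes. The values are limited by 3 arrays per tissue, by saturation of *Tyrp1*, *Dct* and, on 1 array, *Mlana*, by a reference signal that differed between tissues at the brightest probes, and by dyes that were never swapped.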
